A study of Mus musculus with 12 samples.

Results

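Polycomb genes encode the subunits of chromatin complexes that hold genes silent, and 10 of them were followed here across called binding regions of Jmjd2a and Jmjd2c, also named Kdm4a and Kdm4c, which remove methyl groups from histone H3. They were chosen by name: Ezh1, Ezh2, Eed, Suz12 and Jarid2 of Polycomb repressive complex 2 (PRC2) and Bmi1, Ring1, Rnf2, Pcgf1 and Cbx2 of Polycomb repressive complex 1 (PRC1). They are 10 of 26219 mouse genes with a curated RefSeq transcript. Every peak or start-site window that gave one of these names as its nearest or bound gene was taken. This found 7 of the 8977 Jmjd2a peaks, 11 of the 10521 Jmjd2c peaks and 7 of the 6940 windows that the authors listed as bound by both proteins. Each of the 10 genes was named by at least 1 peak.

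The material was L-GMP, granulocyte-macrophage progenitors of C57BL/6 mice that the leukaemia fusion MLL-AF9 had transformed, kept as lines from leukaemic animals. All carried floxed Jmjd2a, Jmjd2b and Jmjd2c (Jmjd2a/b/cf/f) and the Rosa26::CreERT2 allele, a Cre recombinase that tamoxifen activates, so the untreated cells have these alleles too. They grew with 20% serum and 10 ng/ml interleukin-3, either untreated (Ctrl) or with 500 nM 4-hydroxytamoxifen (OHT) for 96 h. Chromatin immunoprecipitation and sequencing gave 12 libraries in 8 groups, 1 per condition for Jmjd2a and for Jmjd2c and 2 per condition for H3K9me3 and for H3K36me3, each with its own antibody. The tables used here hold positions of called regions without a height, a score or a value per library. Depth is therefore unknown, no replicate spread exists, nothing could be compared between OHT and untreated cells or for the histone marks, and no difference below was tested. The sources used here do not give the number of lines or the libraries behind each peak list.

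PRC2 places methyl groups on a lysine of the histone H3 tail. Ezh1 and Ezh2 are its alternative catalytic subunits, Eed and Suz12 form the core that every PRC2 enzyme needs, and Jarid2 is an accessory subunit with a Jumonji domain that lacks demethylase activity. PRC1 attaches ubiquitin to histone H2A. Ring1 and Rnf2 are its alternative ubiquitin ligases, Bmi1 and Pcgf1 are alternative Pcgf subunits of different PRC1 forms, and Cbx2 is a chromodomain subunit that binds the mark left by PRC2. Bmi1 is known for its role in the self-renewal of haematopoietic and leukaemic stem cells, and PRC2 subunits are known to be needed in MLL-AF9 leukaemia.

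Jmjd2c had a peak within 1000 bp of the start of all 10 genes, against 37.9% of all genes. Jmjd2a had one at 7 of the 10, against 27.4% of all genes, and both proteins were at the same 7, against 24.5%. The 7 windows of the co-bound table name these 7 genes. Among genes that carry Jmjd2c, 64.8% also carry Jmjd2a, and 7 of 10 lies close to that share. The shares of all genes count a gene with no start named by a peak or window as having neither protein. Over protein-coding genes they were 44.6% for Jmjd2c, 32.3% for Jmjd2a and 29.0% for both. The 5 PRC1 genes all had both proteins. Of the PRC2 genes, Ezh1 and Ezh2 had both, while Eed, Suz12 and Jarid2 had Jmjd2c alone. The 10 genes were chosen with results of these data known, so their counts are a description.

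**Figure D1:**
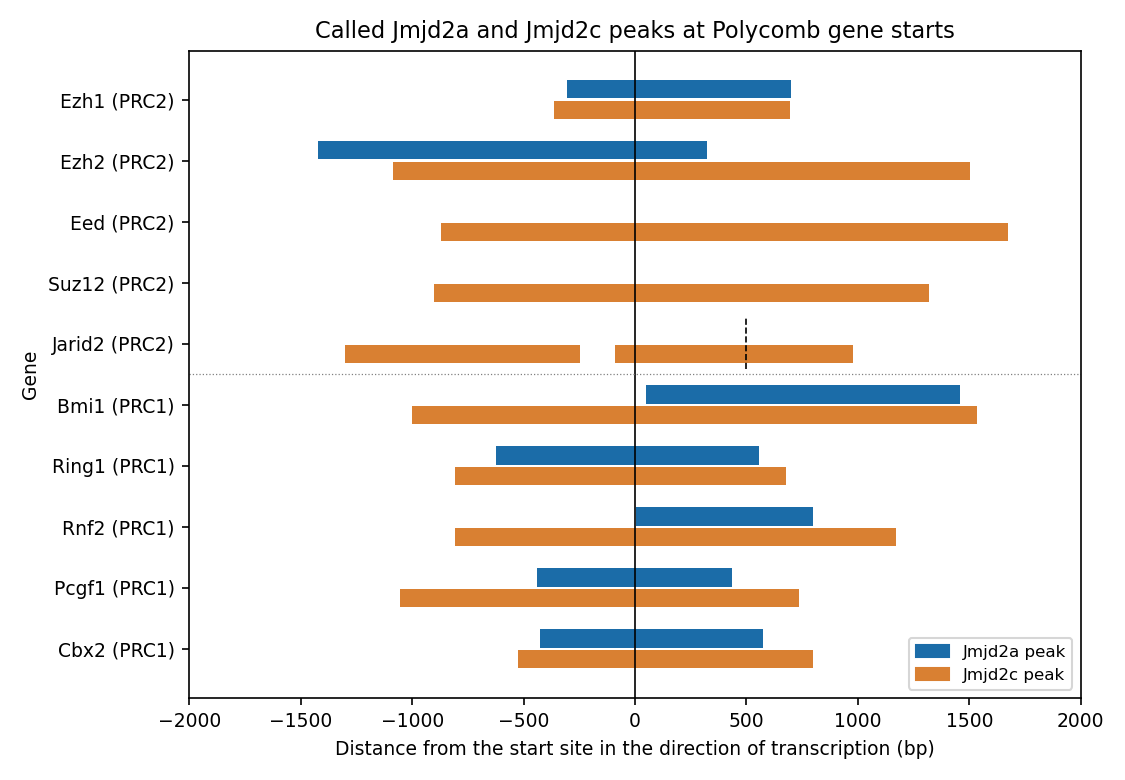
Called peaks at the 10 Polycomb genes, as distance in bp from the start site in the direction of transcription (horizontal axis), 1 row per gene, with Jmjd2a above Jmjd2c. The solid line is the start site and the dashed line the second start of Jarid2, 497 bp downstream of the first. Jmjd2a bars are missing at Eed, Suz12 and Jarid2, and those at Bmi1 and Rnf2 begin just inside the gene.

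Ezh2, the methyltransferase subunit of proliferating cells, had the widest peak of either protein among the 10 genes. Its Jmjd2a peak spanned 1742 bp (chromosome 6, 47594710 to 47596451, mm10) and its Jmjd2c peak 2592 bp (47593527 to 47596118), around a start site at 47595030 on the minus strand. They were wider than 97.6% of the 6908 Jmjd2a peaks and 97.1% of the 9053 Jmjd2c peaks that lie within 1000 bp of a start. The 2 peaks were shifted against each other. Jmjd2a reached 1421 bp upstream of the start and 320 bp into the gene, whereas Jmjd2c reached 1088 bp upstream and 1503 bp into the gene, so that the overlap of 1409 bp made up 80.9% of the Jmjd2a peak and 54.4% of the Jmjd2c peak. Jmjd2a extended 333 bp beyond Jmjd2c on the upstream side, whereas at the other shared genes it passed the Jmjd2c edge by 6 bp (Ezh1) or not at all. The RefSeq promoter table places the start of F830010H11Rik, a long noncoding RNA gene, 179 bp upstream on the other strand, so both peaks cover starts on both strands. That table has the deposited start for Ezh2, but the RefSeq span of Ezh2 begins further upstream, at 47595270, beyond the start of F830010H11Rik.

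Ezh1, the paralogue that prevails in cells that divide little, had peaks of nearly equal extent. The Jmjd2a peak of 1006 bp (chromosome 11, 101225764 to 101226769) and the Jmjd2c peak of 1057 bp (101225770 to 101226826) shared 1000 bp, with edges 6 bp apart inside the gene and 57 bp apart upstream. The start at 101226463, on the minus strand, lay under both. For Jmjd2a this peak was wider than 71.0% of start-site peaks, but for Jmjd2c wider than only 26.4%. The Jmjd2c peak at Ezh1 was therefore 1057 bp against 2592 bp at Ezh2, while the Jmjd2a peaks differed less, 1006 against 1742 bp.

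The promoters of the 2 catalytic subunits are shown from 250 bases before the start to 30 bases into the transcript, 5′ to 3′ on the gene's strand, since both proteins were called over each of them (RefSeq, GRCm38.p6, whose primary chromosomes are those of mm10). Capitals mark CCAAT boxes, read as CCAAT or, on the other strand, ATTGG, and 1 match to the E2F letters TTTGGCG. Ezh1 is chr11:101226434-101226713 and Ezh2 is chr6:47595001-47595280, both minus strand.
Ezh1: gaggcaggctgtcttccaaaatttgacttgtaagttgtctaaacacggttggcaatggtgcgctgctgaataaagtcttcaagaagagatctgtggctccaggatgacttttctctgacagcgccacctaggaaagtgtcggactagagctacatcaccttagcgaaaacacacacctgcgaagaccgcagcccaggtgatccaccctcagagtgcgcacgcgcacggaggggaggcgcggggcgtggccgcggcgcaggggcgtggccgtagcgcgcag
Ezh2: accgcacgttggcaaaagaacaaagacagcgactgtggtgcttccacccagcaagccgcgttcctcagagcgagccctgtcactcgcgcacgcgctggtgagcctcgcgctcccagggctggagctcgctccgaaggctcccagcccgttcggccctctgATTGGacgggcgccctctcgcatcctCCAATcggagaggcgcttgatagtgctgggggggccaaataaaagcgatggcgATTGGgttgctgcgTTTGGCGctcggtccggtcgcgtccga
Ezh2 holds 3 CCAAT boxes, beginning 90, 64 and 11 bases before the start, and the E2F letters 3 bases after it. Ezh1 holds none of these letters, nor the exact letters of any other motif searched. Other spellings of these motifs were not searched.

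Eed, the PRC2 subunit that reads the complex's own mark, had 1 Jmjd2c peak of 2544 bp (chromosome 7, 89979302 to 89981845), wider than 96.7% of Jmjd2c start-site peaks. It reached 869 bp upstream and 1674 bp downstream of the start at 89980976 on the minus strand, the longest reach into a gene among the 10. According to the deposited features it touched exon, intron, coding sequence and 5′ untranslated region. No Jmjd2a peak was called nearer than 461 kb. Suz12, the scaffold of the PRC2 core, likewise had 1 Jmjd2c peak, of 2223 bp (chromosome 11, 79992202 to 79994424), wider than 92.6% of the list, from 904 bp upstream to 1318 bp downstream of the start at 79993106 on the plus strand. The nearest Jmjd2a peak was 149 kb away.

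Jarid2 differed from all others in having 2 Jmjd2c peaks, of 1054 bp (chromosome 13, 44729473 to 44730526) and 1068 bp (44730684 to 44731751). Both were narrower than most in the list, wider than 26.2% and 27.2% of Jmjd2c start-site peaks, but together they spanned 2279 bp. The second covered both annotated starts of Jarid2, at 44730774 and 44731271 on the plus strand, and the first ended 248 bp short of the nearer start. Between them lay 157 bp without a call (44730527 to 44730683), from 247 to 91 bp before the first start. Jmjd2a was called no nearer than 152 kb. Several Jmjd2c peaks were also called near the starts of Kdm2b (2 peaks) and Bcor (3 peaks), PRC1 partner genes with Jmjd2c alone.

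At Eed and Suz12 the Jmjd2c peak without a Jmjd2a call was wide, and at Jarid2 both were narrow. Of the 667 Jmjd2c start-site peaks at least as wide as that of Suz12, 33.4% overlapped no Jmjd2a peak, and of the 301 at least as wide as that of Eed, 35.9%, beside 38.4% of all 9053. The distances to the nearest Jmjd2a peak were longer than at most such genes. Over all 3491 genes with Jmjd2c alone the median was 42.5 kb (quartiles 19.7 and 94.3 kb), and 97.5% of them had a Jmjd2a peak nearer than Eed, 85.0% nearer than Suz12 and 85.4% nearer than Jarid2. A missing call does not show that the protein is absent, as the depth and threshold of the Jmjd2a list are unknown.

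The promoters of these 3 genes are shown over the same 280 bases as above, since Jmjd2c was called over them without Jmjd2a, in Jarid2 on both sides of the 157 bp stretch only. In Eed (chr7:89980947-89981226, minus strand) and Suz12 (chr11:79992856-79993135, plus strand) capitals mark CCAAT boxes. In Jarid2 (chr13:44730524-44730803, plus strand, first start) they mark the bases between the 2 Jmjd2c peaks.
Eed: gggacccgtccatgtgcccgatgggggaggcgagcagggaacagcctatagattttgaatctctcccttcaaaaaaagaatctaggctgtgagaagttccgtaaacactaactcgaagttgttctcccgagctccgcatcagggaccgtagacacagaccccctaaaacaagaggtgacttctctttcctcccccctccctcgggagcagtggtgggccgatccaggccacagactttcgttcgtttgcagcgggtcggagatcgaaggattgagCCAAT
Suz12: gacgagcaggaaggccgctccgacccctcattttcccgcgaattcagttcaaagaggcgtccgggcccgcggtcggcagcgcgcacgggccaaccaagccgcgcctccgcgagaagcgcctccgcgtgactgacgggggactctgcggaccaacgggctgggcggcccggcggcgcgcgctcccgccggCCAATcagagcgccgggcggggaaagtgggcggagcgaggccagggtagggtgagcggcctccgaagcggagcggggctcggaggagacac
Jarid2: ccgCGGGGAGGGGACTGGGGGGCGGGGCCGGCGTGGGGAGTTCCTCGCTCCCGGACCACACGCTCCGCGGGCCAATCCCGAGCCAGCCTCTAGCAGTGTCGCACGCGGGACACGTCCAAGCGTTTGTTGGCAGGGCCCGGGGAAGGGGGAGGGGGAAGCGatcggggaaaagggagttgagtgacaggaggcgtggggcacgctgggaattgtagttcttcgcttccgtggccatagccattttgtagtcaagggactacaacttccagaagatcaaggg
The CCAAT box of Suz12 begins 61 bases before the start and that of Eed 25 bases after it. Jarid2 has one that begins 179 bases before the first start, inside the stretch between the peaks, and another begins 16 bases after its second start.

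Bmi1, a Pcgf subunit of canonical PRC1, had the widest peaks of the PRC1 genes. Jmjd2a spanned 1408 bp (chromosome 2, 18677067 to 18678474) and Jmjd2c 2534 bp (18676018 to 18678551), wider than 91.3% and 96.6% of the start-site peaks of their lists. The start at 18677018, on the plus strand, was covered by Jmjd2c but not by Jmjd2a, whose peak began 49 bp inside the gene and ran to 1456 bp. Jmjd2c began 1000 bp before the start. The deposited features of its peak include a transcript end and a 3′ untranslated region, and those of the Jmjd2a peak do not. Both proteins ended within 77 bp of each other downstream. The Bmi1 promoter is printed because its edge separates the proteins: all 280 bases (chr2:18676768-18677047, plus strand) lay under the Jmjd2c peak and upstream of the Jmjd2a peak. None of the exact letters searched was found in the window, so it has no capitals. Other spellings of the motifs were not searched.
Bmi1: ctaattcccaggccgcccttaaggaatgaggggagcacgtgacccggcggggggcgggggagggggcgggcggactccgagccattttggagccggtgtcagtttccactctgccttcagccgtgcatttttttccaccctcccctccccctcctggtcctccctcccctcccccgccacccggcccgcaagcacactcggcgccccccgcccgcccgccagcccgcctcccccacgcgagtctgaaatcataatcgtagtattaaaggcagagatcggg

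Rnf2, the more widely used PRC1 ubiquitin ligase subunit, showed the same arrangement. Its Jmjd2a peak of 794 bp (chromosome 1, 151500027 to 151500820), the narrowest of the 7, stopped 3 bp inside the start at 151500823 on the minus strand and reached 796 bp into the gene. The Jmjd2c peak of 1981 bp (151499652 to 151501632) covered the start with 809 bp upstream and 1171 bp downstream. Jmjd2a thus filled 40.1% of the Jmjd2c peak, the smallest part among the 7 genes. The RefSeq promoter table gives Rnf2 a start 168 bp further upstream than the deposited one.

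Ring1, the paralogue of Rnf2, had both proteins across its start. Jmjd2a spanned 1179 bp (chromosome 17, 34024127 to 34025305) and Jmjd2c 1488 bp (34024002 to 34025489) around 34024680, minus strand, with 79.2% of the Jmjd2c peak overlapped. The same peaks named 2 microRNA genes, Mir219c and Mir219a-1, whose starts lie 332 and 412 bp upstream of Ring1, so the genes under these peaks cannot be told apart. The 2 ligase genes thus had Jmjd2c peaks wider than 59.5% (Ring1) and 86.3% (Rnf2) of the list, and Jmjd2a peaks wider than 81.6% and 53.0%, in the reverse order.

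Pcgf1, the Pcgf subunit of a variant PRC1 that carries Kdm2b and Bcor, carried Jmjd2a over 875 bp (chromosome 6, 83077952 to 83078826), placed almost evenly on its start at 83078390, with 438 bp upstream and 436 bp downstream on the plus strand. The Jmjd2c peak of 1790 bp (83077334 to 83079123) extended it by 618 bp upstream and 297 bp downstream. The RefSeq span of Pcgf1 begins further upstream than this deposited start, at 83077552. From that edge the Jmjd2a peak lay wholly inside the gene, while the Jmjd2c peak covered the edge. Cbx2, the chromodomain subunit, had peaks of 1000 bp for Jmjd2a (chromosome 11, 119022602 to 119023601) and 1325 bp for Jmjd2c (119022502 to 119023826) around 119023029 on the plus strand, the Jmjd2a peak taking up 75.5% of the other. The RefSeq promoter table has a start of the predicted gene Gm35829 810 bp downstream of that of Cbx2. It lies 13 bp past the edge of the Jmjd2c peak and 238 bp past that of the Jmjd2a peak, so within 1000 bp of both.

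Cbx8, another PRC1 chromodomain gene on chromosome 11, has its start 17.9 kb from that of Cbx2. It had 2 peaks of each protein, the ones over its start spanning 628 bp for Jmjd2a (119040302 to 119040929) and 659 bp for Jmjd2c (119040343 to 119041001).

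Across the 10 genes, the Jmjd2a peaks had a median width of 1006 bp (794 to 1742), and all 7 were wider than 761 bp, the median of Jmjd2a start-site peaks. The 11 Jmjd2c peaks had a median of 1790 bp (1054 to 2592) against 1366 bp, and 7 of them were wider than it. In the widest 25% of their list were 3 of the 7 Jmjd2a peaks, at Ezh2, Bmi1 and Ring1, and 6 of the 11 Jmjd2c peaks, at Ezh2, Eed, Bmi1, Suz12, Rnf2 and Pcgf1. Width is not a measure of signal, and it was not tested.

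**Figure D2:**
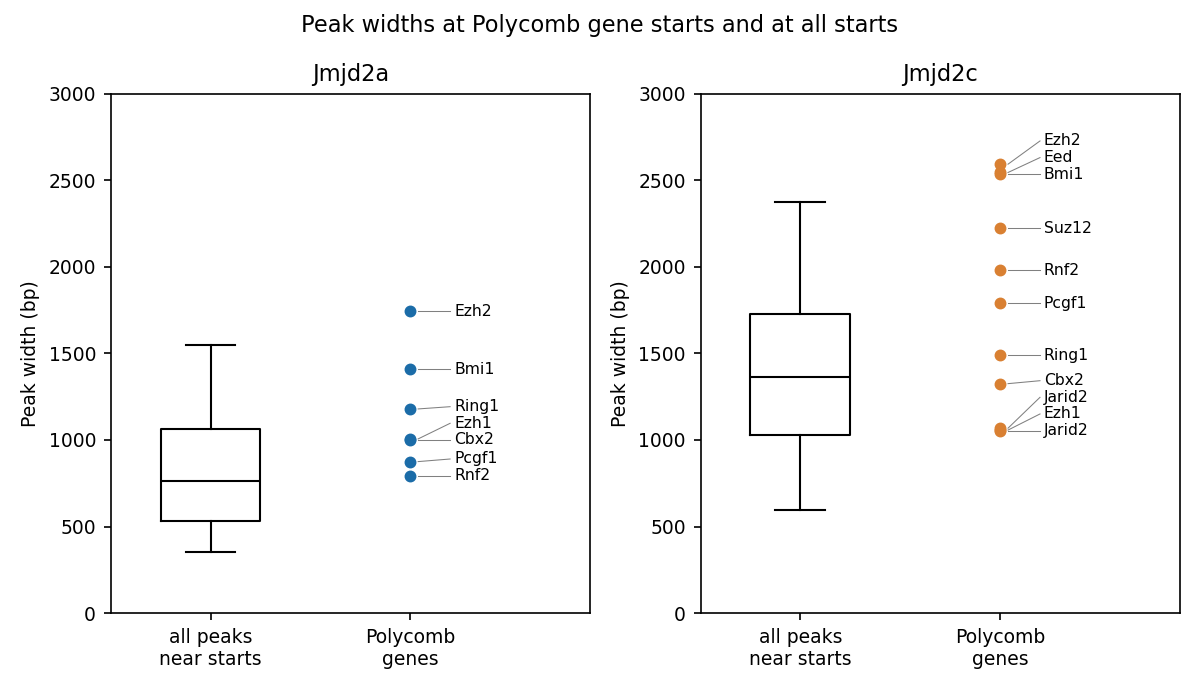
Widths in bp of the peaks at Polycomb genes (points, named) beside all peaks within 1000 bp of a start site (box: median and quartiles; whiskers: 5th to 95th percentile), for Jmjd2a on the left and Jmjd2c on the right. All 7 Jmjd2a points lie above the median of 761 bp, and Ezh2, Eed and Bmi1 form the top of the Jmjd2c points, between 2534 and 2592 bp.

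At the 7 shared genes each Jmjd2a peak overlapped a Jmjd2c peak, and at 5 of them (Bmi1, Ring1, Rnf2, Pcgf1 and Cbx2, all PRC1) it lay wholly inside it. This does not hold for all PRC1 genes. At the PRC1 partners Pcgf6 (1387 against 1188 bp) and Auts2 (1059 against 556 bp) Jmjd2a had the wider peak. Among 5102 start-site pairs in which 1 peak of each list overlap, 61.9% had the Jmjd2a peak inside. The ratio of Jmjd2a to Jmjd2c width ran from 0.401 at Rnf2 to 0.952 at Ezh1, with a median of 0.672 against 0.65 over all those pairs. Jmjd2a covered the start itself at 5 of 7 genes, near the 66.7% of all its start-site peaks, and 10 of the 11 Jmjd2c peaks did so, against 91.0% of all Jmjd2c start-site peaks. At 4 of the 7 genes (Ezh1, Bmi1, Rnf2 and Cbx2) Jmjd2a reached further into the gene than upstream, and of the 10 Jmjd2c peaks that cover a start 8 did so, the exceptions being those at Ring1 and Pcgf1. Jarid2 is among the 8 only by its second peak, since its first extends to 1301 bp upstream of the start. These counts use the deposited starts. From the RefSeq edge of Pcgf1, its Jmjd2a peak would cover no start and both its peaks would reach further into the gene than upstream. Over the authors' co-bound windows the peak centre lay downstream of the start in 63.3% for Jmjd2a and 68.8% for Jmjd2c. These shares for the Polycomb genes lay near those of all start-site peaks or windows.

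No further peak was called within the body of any of the 10 genes. Within 10000 bp outside them, 11 more peaks named other genes, at Bmi1, Ring1, Pcgf1 and Cbx2, and the other 6 genes had none. Upstream of Bmi1 both proteins were at the start of Commd3, 1400 bp wide for Jmjd2a and 1561 bp for Jmjd2c. Downstream of it a Jmjd2a peak of 1960 bp (chromosome 2, 18688629 to 18690588) began 2000 bp past the end of the gene, over no annotated RefSeq feature in the deposited table, with no overlapping Jmjd2c peak. It was wider than the Jmjd2a peak at Bmi1 itself. A pair at 7491 bp (Jmjd2a, 757 bp) and 7019 bp (Jmjd2c, 1230 bp) past the end was assigned to BC061194. Near Ring1 a Jmjd2c peak of 1750 bp lay at the shared promoter of Rxrb and Slc39a7, and near Pcgf1 one of 589 bp at Lbx2. The 4 near Cbx2 were those of Cbx8.

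Promoter sequence was compared for the 8 genes in the RefSeq promoter table, Jarid2 with both starts. Pcgf1 and Cbx2 were not matched. In windows of 300 bp, from 250 bases before to 50 after the start, GC content ran from 54.7% at Eed to 74.0% at Ring1, and the observed over expected CpG ratio from 0.708 at Bmi1 to 1.09 at Suz12. All 9 windows lay above the medians of the 32851 promoters in the table, 52.7% and 0.384. Promoters were grouped by the pattern of their gene, so a group can hold promoters whose own calls differ. Medians were 62.3% and 0.804 for promoters of genes with both proteins. They were 61.0% and 0.771 for genes with Jmjd2c alone, against 50.7% and 0.274 with neither. Ring1 and Rnf2 (72.7%) exceeded the upper quartile of GC content for genes with both proteins (68.7%), and Ezh2 (0.999) that of the CpG ratio (0.938). Suz12 (71.0% GC) exceeded both upper quartiles for genes with Jmjd2c alone, 67.0% and 0.915. The genes with Jmjd2c alone spanned nearly the whole range. Eed had the lowest GC content with 17 CpG sites, and Suz12 had the most CpG sites, 41.

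**Figure D3:**
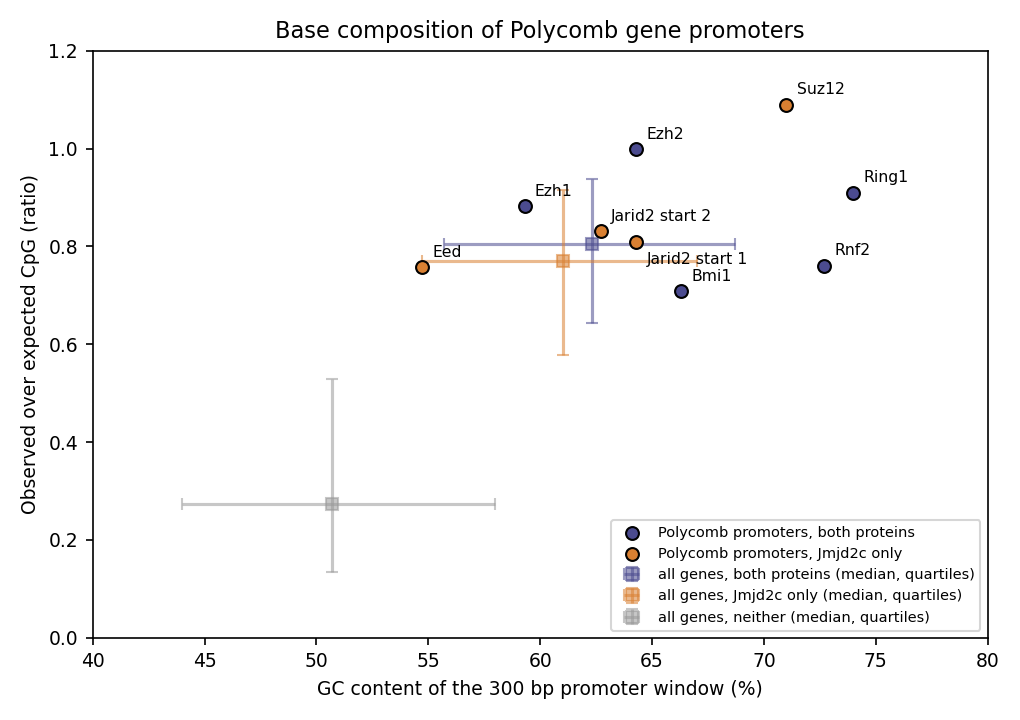
GC content in percent (horizontal axis) and observed over expected CpG ratio (vertical axis) of 300 bp promoter windows. Circles are Polycomb promoters and squares the medians of all genes by pattern of peaks, with lines to the quartiles. All 9 Polycomb windows lie above the median for promoters of genes with neither protein (50.7% and 0.274), and the circles of both colours are mixed.

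CCAAT boxes were found in 4 of the 8 genes, Ezh2, Eed, Suz12 and Jarid2, all of PRC2, and in none of Ezh1, Bmi1, Ring1 and Rnf2. The motif is common, in 37.4% of all promoters of that length on either strand. It was in 38.8% of promoters of genes with both proteins and in 36.5% for genes with Jmjd2c alone. The E2F letters TTTGGCG, at Ezh2, were in 1.56% of all promoters. None of the 8 genes held TTTCGCG, also searched for E2F (0.849% of all promoters), GCGCATGC of NRF1 (2.71%), ACTTCCGG of ETS factors (3.89%) or AAGATGGC of YY1 (2.75%). Both strands were searched, and no motif overlaps another. Each motif was searched only as the exact letters given, so other forms of it, E2F included, would be missed. These matches are letters in a window, not binding sites.

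Most further Polycomb genes carried Jmjd2c, and fewer carried Jmjd2a. Of 43 genes of the same complexes and of the Polycomb deubiquitinase, Jmjd2c was at 35 (81.4%), Jmjd2a at 21 (48.8%) and both at 20 (46.5%), against the 37.9%, 27.4% and 24.5% of all genes. Among 24 PRC1 partners 13 had both proteins, 6 had Jmjd2c alone, 1 had Jmjd2a alone and 4 had neither. Those with both were Pcgf2, Pcgf3, Pcgf6, Cbx7, Cbx8, Phc1, Phc2, Rybp, Yaf2, Scmh1, L3mbtl2, Auts2 and E2f6. The widest Jmjd2a peaks there were at Yaf2 (1450 bp for Jmjd2a and 2221 bp for Jmjd2c), a subunit of variant PRC1, at the Pcgf gene Pcgf6 (1387 and 1188 bp), and at Scmh1 and the DNA-binding subunit gene E2f6 (1282 bp for Jmjd2a at each). Jmjd2c alone was at Cbx6, Phc3, Kdm2b, Bcor, Bcorl1 and Usp7. Kdm2b, a CpG-binding lysine demethylase of the Pcgf1 complex, had a Jmjd2c peak of 3127 bp, wider than any at the 10 genes. Mga alone had Jmjd2a without Jmjd2c, as 2 peaks, the wider of 1057 bp. Pcgf5, Scml2 and Scml4 were among those with neither, but the RefSeq promoter table gives Pcgf5 other starts at which both proteins were called.

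Among the 9 PRC2 partners Jmjd2c was at 7 and Jmjd2a at 4. Both proteins were at Rbbp4, Aebp2, Epop and Lcorl (4 of 9), with the widest Jmjd2a peaks at Epop (1399 bp, with 1295 bp for Jmjd2c), Lcorl (1346 and 2328 bp) and Aebp2 (800 and 1880 bp). Jmjd2c alone was at Rbbp7, a histone-binding subunit, and at Mtf2 and Phf19, which bring PRC2 to CpG-rich DNA (2022, 1453 and 1293 bp). Phf1 and Lcor had neither, although Jmjd2c was called at the start that the RefSeq promoter table gives Lcor. The genes listed for the Polycomb deubiquitinase, a complex that removes the mark of PRC1, had Jmjd2c at 9 of 10. They had Jmjd2a at 3 of 10, close to the 27.4% of all genes. Foxk2 (1832 bp for Jmjd2a, 2025 bp for Jmjd2c), Foxk1 (1034 and 1325 bp) and Asxl2 (552 and 2697 bp) had both, Bap1, the catalytic subunit, and Asxl1, Hcfc1, Ogt, Mbd5 and Mbd6 had Jmjd2c alone, and Asxl3 had neither. Asxl2 lost its Jmjd2a call, and Auts2 both calls, with a window of 500 bp.

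**Figure D4:**
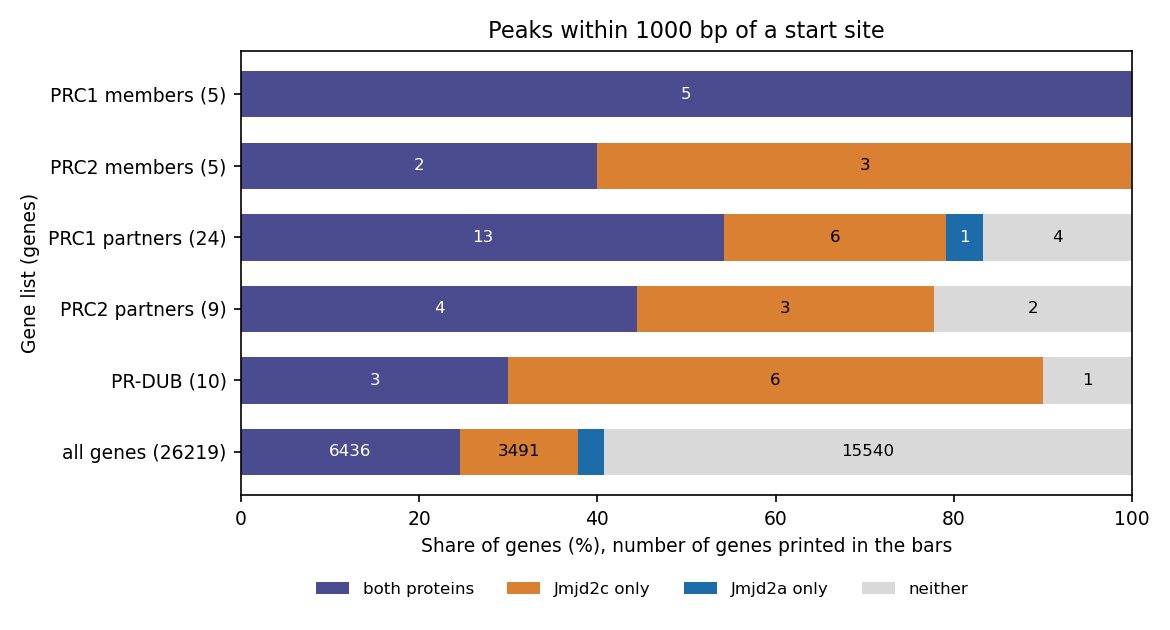
Share of genes in percent (horizontal axis) with both proteins, Jmjd2c alone, Jmjd2a alone or neither within 1000 bp of a start site, for the 10 Polycomb genes split by complex, 3 lists of further Polycomb genes (PR-DUB, the Polycomb deubiquitinase) and all genes. Numbers in the bars count genes, and the unnumbered bar of all genes holds 752 with Jmjd2a alone. Both proteins were at 5 of 5 PRC1 genes, 2 of 5 PRC2 genes and 3 of 10 deubiquitinase genes, against 24.5% of all genes.

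Of the 43 further genes 6 are X-linked (Rbbp7, Scml2, Bcor, Bcorl1, Hcfc1 and Ogt). Jmjd2c was at 5 of them and Jmjd2a at 0, and over all 1130 X-linked genes Jmjd2c was at 283 and Jmjd2a at 104 (9.2%). Of the 37 autosomal genes 21 had Jmjd2a (56.8%). All 10 of Ezh1, Ezh2, Eed, Suz12, Jarid2, Bmi1, Ring1, Rnf2, Pcgf1 and Cbx2 are autosomal. By pattern, the genes most like Eed, Suz12 and Jarid2 were the 15 of the 43 with Jmjd2c alone, and those most like the other 7 were the 20 with both proteins.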

How the data were processed

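Chromatin immunoprecipitation libraries were aligned and processed by the authors with Bowtie 0.12.7, SAMtools and bedtools 2.25.0 on mm10, per the submitters' processing notes. For the peak caller, its threshold and its control: not given in the sources used here. Per the file headers, the deposited tables hold start and end positions of called regions with the distance to the nearest start site, both in bp, and windows of 1000 bp on either side of co-bound starts. Starts were read as counting from 0 and are printed from 1. A shift of 1 bp is possible, so gaps of a few bp, as at Rnf2 and Ezh1, are not exact.

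A protein counted as present at a gene if any start site named for the gene was at most 1000 bp from a peak. A gene with no named start counted as having neither protein. Start sites (12823) were tied to genes through RefSeq accessions, 16875 of 17007 being found in the RefSeq table (GRCm38.p6). In entries that join several genes, a position went to the gene with a table edge at it, else to one with an edge within 1000 bp, else to all named. Peaks overlapped with at least 1 bp in common. The gap step was checked on planted peaks. Python 3.11.15, numpy 2.4.6, pandas 2.3.3, scipy 1.17.1 and matplotlib 3.10.9 were used.

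The 10 genes and the lists of further Polycomb genes were chosen with earlier results of these data known. All 10 are named, with each gene that shares a start-site peak with them. The further genes are named by pattern, except 1 that is counted but not reported here, with widths for up to 3 per list that have both proteins and the widest Jmjd2a peaks, tied widths included. Widths given for others were chosen after they were seen. No test was run, since the tables hold no value per library.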

Additional observations from a re-analysis of the deposited data

How the results depend on the processing

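Of the 10 genes, 7 had Jmjd2a, 10 had Jmjd2c and 7 had both with windows of 500, 5000 and 10000 bp as with 1000 bp. With the wider 50% of each list they were 7, 8 and 6, as Ezh1 lost its Jmjd2c call and Jarid2 both of its peaks. The 7 overlapping pairs were found with an overlap of 50% of the shorter peak and with a gap of up to 1000 bp. The share of all genes depends on which genes are counted. Over 21031 protein-coding genes it was 32.3% for Jmjd2a, 44.6% for Jmjd2c and 29.0% for both. Over the start sites of the RefSeq promoter table (19528 genes), an alternative chosen after seeing the data, it was 30.8%, 43.0% and 27.6%, and the 8 Polycomb genes in that table kept their patterns. For the 43 further genes, windows of 500 and 5000 bp gave 19 and 22 with Jmjd2a, 34 and 35 with Jmjd2c, and 18 and 20 with both. No paired analysis was possible because the tables hold no value per library, and for the same reason no library could be left out. Depth limits every missing call, since it is unknown for both lists.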
